A study of Mus musculus with 2 samples.

Results

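The genes described here are 9 genes of striatal projection neurons, the output neurons of the basal ganglia, in whole forebrain of newborn mice. They were chosen by symbol from knowledge of this cell type, with earlier results of these data known. They comprise 5 transcription factors (Isl1, Ebf1, Six3, Meis1 and Meis2) and 4 signalling proteins (Ppp1r1b, Adora2a, Pde10a and Rgs9). All 9 were found among the 43346 genes of the deposited tables. Total RNA came from B6NCrl pups at postnatal day 0, and each library was made from the forebrain of 1 animal, pup 1 (replicate 1) or pup 3 (replicate 2). Both libraries belong to 1 group with no treatment, allele or second tissue in the labels, and although the labels describe separate pups, both carry the same donor identifier. Sex was not collected. A whole forebrain holds cortex, striatum, thalamus and hypothalamus together, so a member's level is an average over all of these, and fewer cells of a type and less RNA per cell cannot be told apart.

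Striatal projection neurons arise in the lateral ganglionic eminence and use GABA as their transmitter. They fall into a direct pathway, whose cells carry the dopamine D1 receptor and make substance P and dynorphin, and an indirect pathway, whose cells carry the dopamine D2 receptor and the adenosine A2a receptor and make enkephalin. Isl1 and Ebf1 act in direct-pathway cells, Six3 promotes the indirect-pathway fate, and Meis1 and Meis2 are TALE homeodomain factors, of which Meis2 is used throughout the developing striatum. Ppp1r1b encodes DARPP-32, an inhibitor of protein phosphatase 1 when phosphorylated by protein kinase A. Pde10a encodes a phosphodiesterase that degrades cAMP and cGMP, and Rgs9 a protein that speeds the switching off of G proteins.

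The coding differences between the main transcripts of 4 members carry much of what follows, and their sequences are shown here 5′ to 3′ on the strand of the gene, from the GENCODE M21 transcripts on GRCm38, the same build as mm10. In Meis2, the capitals mark a 21-base extension of an exon (chr2:115867359-115867379, minus strand), present in Meis2-205 and absent from Meis2-206 at the same junction. In Isl1, the capitals mark 69 coding bases (chr13:116301710-116301778, minus strand) that Isl1-201 has and Isl1-202 lacks. In Ebf1, they mark a 24-base stretch (chr11:44883932-44883955, plus strand) and a 3-base stretch (chr11:44907904-44907906), of which Ebf1-202 has both, Ebf1-201 the longer and Ebf1-203 the shorter. In Rgs9, they mark the 54 bases that follow the last shared coding exon, which are all of the remaining coding sequence of Rgs9-204 (chr11:109235846-109235899, minus strand) and the first of 627 bases in Rgs9-201 (chr11:109227551-109227604).
Meis2-205: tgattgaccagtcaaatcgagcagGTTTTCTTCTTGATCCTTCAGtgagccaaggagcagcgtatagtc
Meis2-206: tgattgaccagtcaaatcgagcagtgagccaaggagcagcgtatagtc
Isl1-201: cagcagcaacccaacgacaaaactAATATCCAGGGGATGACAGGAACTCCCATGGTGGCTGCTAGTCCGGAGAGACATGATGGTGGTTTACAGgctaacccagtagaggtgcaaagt
Isl1-202: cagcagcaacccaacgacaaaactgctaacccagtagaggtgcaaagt
Ebf1-202: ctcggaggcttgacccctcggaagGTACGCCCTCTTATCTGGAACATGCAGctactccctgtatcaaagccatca
Ebf1-201: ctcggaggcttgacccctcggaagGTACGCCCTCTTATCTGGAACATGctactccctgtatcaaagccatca
Ebf1-203: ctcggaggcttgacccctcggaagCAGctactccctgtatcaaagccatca
Rgs9-204: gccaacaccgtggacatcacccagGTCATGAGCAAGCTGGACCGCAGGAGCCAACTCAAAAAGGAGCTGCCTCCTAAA
Rgs9-201: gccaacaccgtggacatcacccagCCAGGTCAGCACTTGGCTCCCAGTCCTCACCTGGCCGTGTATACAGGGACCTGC

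All 9 members were detected, with 1 TPM or more in both pups, which 60.7% of all protein-coding genes reached. TPM is the deposited abundance of a gene's transcripts relative to all transcripts of a library, corrected for length, so levels can be set against each other between genes. Of the 9 members, 5 had at least 10 TPM in both pups, against 36.3% of all protein-coding genes. The median member had 11.7 TPM (14.4 in pup 1 and 10.2 in pup 3), below the median of 17.0 TPM over the 13030 detected protein-coding genes, and 3 members lay above that median. The libraries held 40066386 expected counts in pup 1 and 40431595 in pup 3, of which each member drew between 487 and 6830. Since the smallest p of an exact sign-flip test on 2 pups of 1 group is 0.5, no test was made, and the SD given with a mean covers these libraries only (n = 2 throughout).

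Among the transcription factors, Meis2 was the most abundant, with 92.3 TPM in pup 1 and 71.0 TPM in pup 3 (mean 81.7 ± 15.1 SD; ENSMUSG00000027210, chr2:115863064-116065839, minus strand). Its paralog Meis1 (ENSMUSG00000020160, chr11:18879817-19018985, minus strand), which in mammals also acts with Hox proteins, had 10.9 TPM in pup 1 and 9.55 TPM in pup 3. Within each library Meis2 stood 8.36-fold above Meis1 in pup 1 and 7.37-fold in pup 3. The third paralog, Meis3, was far higher than Meis1, at 77.9 TPM in pup 1 and 71.6 TPM in pup 3, so Meis1 was the lowest of these 3 paralogs.

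Isl1, a LIM-homeodomain factor (ENSMUSG00000042258, chr13:116298281-116309689, minus strand), had 40.5 TPM in pup 1 and 33.0 TPM in pup 3 (36.7 ± 5.28 SD). Its paralog Isl2 was listed at 0.03 TPM in pup 1 and at 0 in pup 3, so nearly all Islet RNA in the forebrain came from Isl1. Isl1 exceeded Drd1, the D1 receptor gene, 6.96-fold in pup 1 and 6.67-fold in pup 3. Isl1 is also used by cholinergic and hypothalamic neurons, whose markers are given further on.

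Ebf1, a helix-loop-helix factor of the COE family (ENSMUSG00000057098, chr11:44617317-45008091, plus strand), had 17.8 TPM in pup 1 and 12.9 TPM in pup 3 (15.4 ± 3.44 SD). Ebf2 was 12.0-fold lower than Ebf1 in pup 1 and 10.0-fold lower in pup 3, at 1.39 TPM in pup 1 and 1.20 TPM in pup 3. Ebf3 was lower still, at 0.55 TPM in pup 1 and 0.10 TPM in pup 3. Ebf1 was therefore the highest of the 3 family members measured in both pups.

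Six3, a homeodomain factor of forebrain and eye (ENSMUSG00000038805, chr17:85613608-85629302, plus strand), had 14.4 TPM in pup 1 and 7.91 TPM in pup 3 (11.2 ± 4.60 SD). The deposited intervals, 13.2 to 15.1 TPM in pup 1 and 7.11 to 8.46 TPM in pup 3, lay apart, and the pup ratio of 1.81 was the widest of the members. Its paralog Six6, a gene of the hypothalamus and retina, had 0.67 TPM in pup 1 and 0.05 TPM in pup 3. Six3os1, a noncoding gene on the opposite strand (chr17:85600651-85618398), had 6.97 TPM in pup 1 and 4.49 TPM in pup 3. Six3os1 overlaps the annotated Six3 gene by 4791 bases, and since no source used here gives the strandedness of the libraries, reads of that stretch cannot be assigned with certainty.

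Among the signalling genes, Ppp1r1b had the highest mean of all members, with 79.8 TPM in pup 1 and 101 TPM in pup 3 (90.4 ± 15.1 SD; ENSMUSG00000061718, chr11:98348404-98357796, plus strand). It was the only member lower in pup 1. Its paralog Ppp1r1a, which encodes phosphatase inhibitor 1, was higher, at 161 TPM in pup 1 and 170.1 TPM in pup 3. The ratio of Ppp1r1b to Ppp1r1a was 0.494 in pup 1 and 0.595 in pup 3.

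Adora2a, the A2a receptor gene (ENSMUSG00000020178, chr10:75316877-75334784, plus strand), was the lowest member, with 8.32 TPM in pup 1 and 7.11 TPM in pup 3, an 11.7-fold smaller mean than that of Ppp1r1b. Adora1, which encodes the A1 receptor, had 32.3 TPM in pup 1 and 24.2 TPM in pup 3, so the ratio of Adora2a to Adora1 was 0.260 in pup 1 and 0.297 in pup 3. Adora2a was 1.43-fold above Drd2 in pup 1 and 1.79-fold in pup 3. That last ratio (mean log2 0.682, SD 0.228) fell just short of 3 SD of its log2 value between the pups. Exceeding 3 SD was the criterion used here for calling a ratio larger than the spread.

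Pde10a (ENSMUSG00000023868, chr17:8525372-8986648, plus strand) had 13.0 TPM in pup 1 and 9.18 TPM in pup 3 (11.1 ± 2.72 SD). Pde1b, a calmodulin-dependent phosphodiesterase also found in striatum, was higher at 48.5 TPM in pup 1 and 36.6 TPM in pup 3, which put the ratio of Pde10a to Pde1b at 0.270 in pup 1 and 0.253 in pup 3. Pde2a, the other phosphodiesterase listed for comparison, was not analysed here.

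Rgs9 (ENSMUSG00000020599, chr11:109225355-109298129, minus strand) had 13.2 TPM in pup 1 and 10.2 TPM in pup 3 (11.7 ± 2.17 SD). Of its R7 family relatives, Rgs7 was higher, and the ratio of Rgs9 to Rgs7 was 0.332 in pup 1 and 0.340 in pup 3. Rgs11, at 10.8 TPM in pup 1 and 6.59 TPM in pup 3, differed from Rgs9 by less than the criterion. R7 proteins are held at membranes by anchor proteins, and both anchors were measured. Rgs7bp, the anchor used in striatum, had 7.71 TPM in pup 1 and 3.06 TPM in pup 3, and its ratio to Rgs9 was too uneven between the pups to pass the criterion. Rgs9bp, the anchor of photoreceptors, stood at 0.07 TPM in both pups (11 expected counts in pup 1 and 13 in pup 3).

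**Figure D1:**
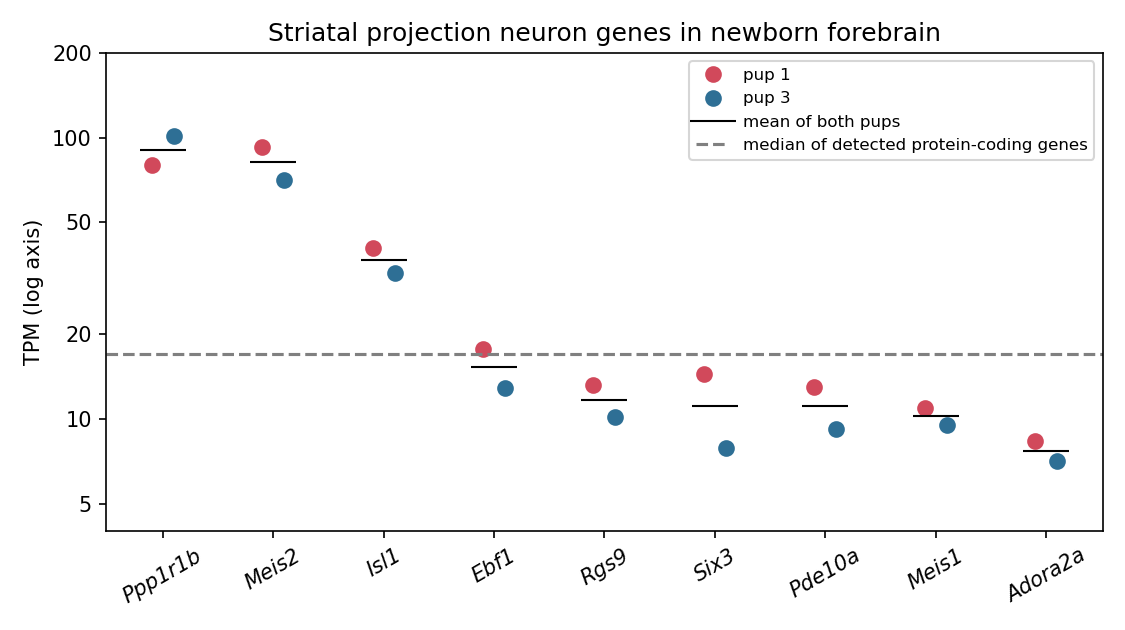
TPM on a log axis of the 9 members in pup 1 (red, left point) and pup 3 (blue, right point), with a black line at the mean of both and a dashed line at 17.0 TPM, the median over detected protein-coding genes. Ppp1r1b, Meis2 and Isl1 lie above the dashed line in both pups and Adora2a is lowest in both, at 8.32 TPM in pup 1 and 7.11 TPM in pup 3.

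The order of the members by mean TPM was Ppp1r1b, Meis2, Isl1, Ebf1, Rgs9, Six3, Pde10a, Meis1 and Adora2a. On the TPM of all their transcripts, Ppp1r1b and Meis2 could not be ordered, since Meis2 was the higher in pup 1 and Ppp1r1b in pup 3. By the deposited transcript shares, Meis2 was the higher in both pups for coding transcripts. A noncoding transcript, described below, was given much of the Ppp1r1b TPM. Only 30 of the 1191 bases of that transcript lie outside the exons of Ppp1r1b-201, so this coding order rests on an uncertain division. The main coding transcript, Ppp1r1b-201, had 43.1 TPM in pup 1 and 53.8 TPM in pup 3. All protein-coding Meis2 transcripts together had 81.9 TPM in pup 1 and 64.0 TPM in pup 3. Meis2 and Isl1 did not overlap, nor did Isl1 and Ebf1 or Meis1 and Adora2a. Ebf1 and Rgs9 had overlapping ranges but the same order in each library. The ranges of Rgs9, Six3, Pde10a and Meis1 overlapped from each to the next, and Six3 was the highest of these in pup 1 and the lowest in pup 3. Rgs9 stood above Pde10a and Meis1 in both pups, whereas Pde10a and Meis1 changed places.

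Of the 15 gene pairs measured, 12 had a ratio larger than the pup spread. Isl2, Rgs9bp, Ebf3 and Six6 were so low that the pseudocount of 0.1 TPM sets the size of their ratios, and only the direction is read from them. Each of the 5 pairs in which the member was the lower gene passed the criterion, and these set Meis1 below Meis3, Pde10a below Pde1b, Adora2a below Adora1, Rgs9 below Rgs7 and Ppp1r1b below Ppp1r1a.

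**Figure D2:**
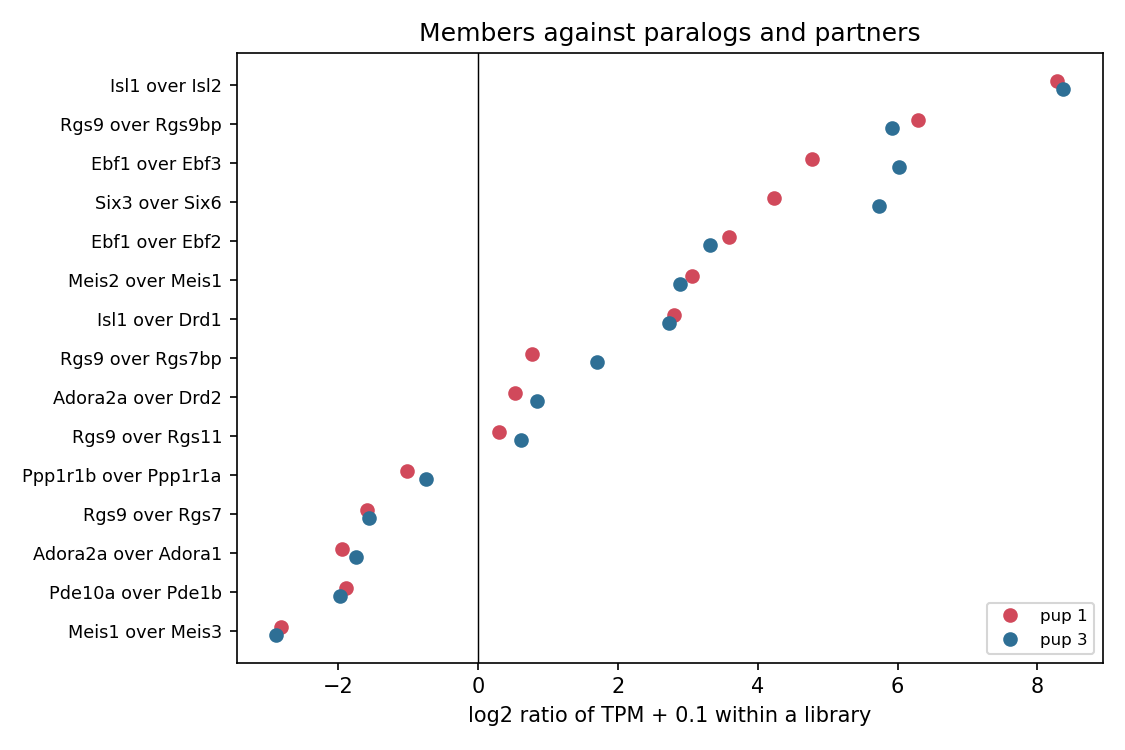
Log2 ratio of TPM + 0.1 within a library for each member over a paralog or partner gene, in pup 1 (red) and pup 3 (blue), with 0 marking equal levels. The 5 pairs left of 0 in both pups are those in which the member was the lower gene, from Meis1 over Meis3 (ratio 0.142 in pup 1 and 0.135 in pup 3) to Ppp1r1b over Ppp1r1a (0.494 in pup 1 and 0.595 in pup 3).

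Between the pups, 8 of the 9 members had the higher TPM in pup 1, which was also true of 80.4% of the 14985 genes with a mean of 1 TPM or more. The median ratio of pup 1 over pup 3, on TPM + 0.1, was 1.30 for the members and 1.20 for all these genes, a common shift of 0.27 on the log2 scale. The TPM of pup 1 was then divided by 1 constant (1.24), which carries TMM scaling of counts over to TPM through the median gene. This removes most of that shift and left 5 of the 9 members higher in pup 1, beside 45.3% of all genes. DESeq2 size factors also left 5 of 9 (46.2% of all genes), and TPM rescaled over nuclear protein-coding genes left 8 of 9 (75.0% of all genes). The TMM and DESeq2 constants changed the direction of Isl1, Meis1 and Adora2a. Their TPM ratios of 1.23, 1.15 and 1.17 therefore have no settled sign. A gene's own scaled counts can differ from this. Isl1 had 1801 expected counts in pup 1 and 1501 in pup 3, for effective TMM libraries of 42157115 and 38425808. Those counts leave Isl1 higher in pup 1. The ratios of Ebf1 (1.37), Pde10a (1.41), Meis2 (1.30) and Rgs9 (1.30) came to 1.11, 1.14, 1.05 and 1.05 after TMM.

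Six3 and Ppp1r1b stood at the ends of the members. Each scaling divides pup 1 by a constant, so it could hardly change this order and does not test it. The Six3 ratio was 1.81 on TPM and 1.46 after TMM, and 92.1% of genes had a smaller ratio. The Ppp1r1b ratio was 0.789 on TPM and 0.636 after TMM, with 3.82% of genes below it. No member differed by 2-fold with deposited intervals apart (0 of 9), a rule that 3.98% of all genes met, and at 1.5-fold Six3 alone met it, beside 16.9% of all genes. The intervals of the pups lay apart for 7 of the 9 members, all but Meis1 and Adora2a, and for 53.6% of all genes.

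**Figure D3:**
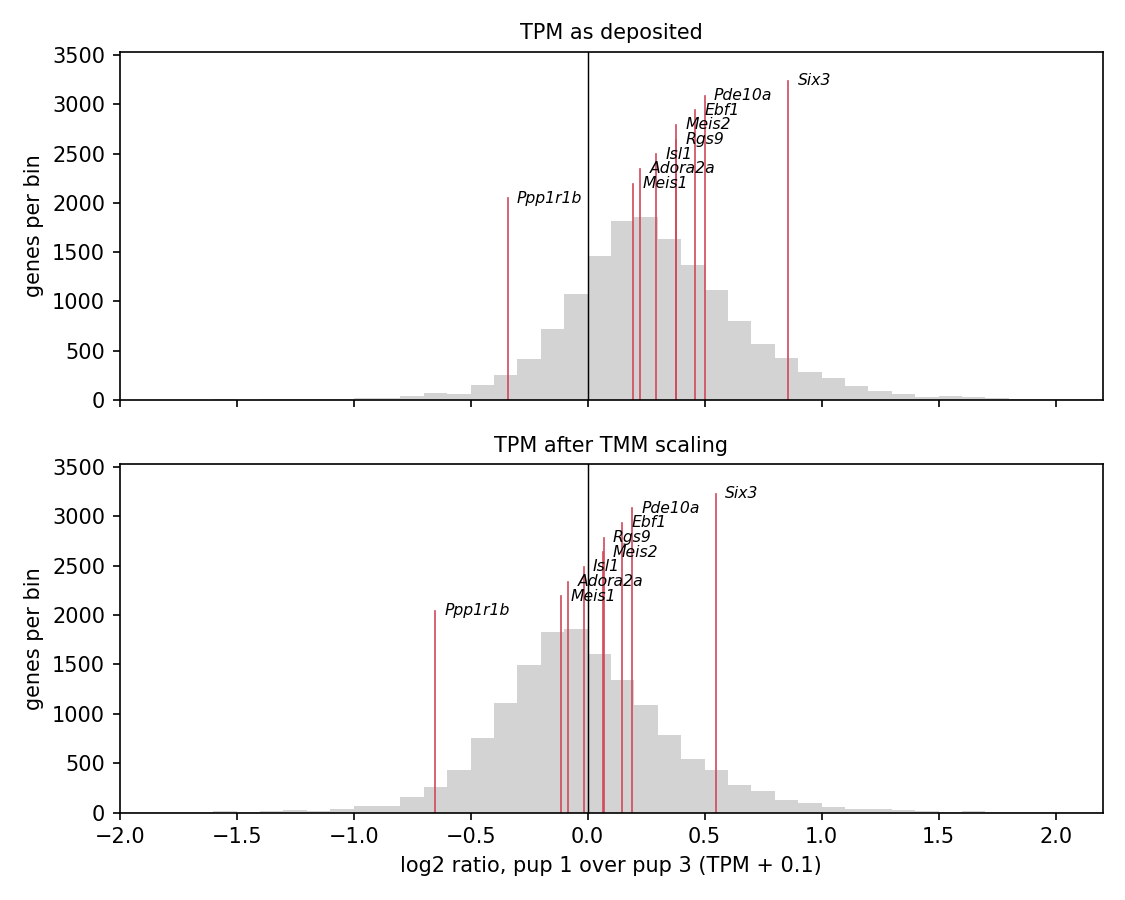
Log2 ratio of pup 1 over pup 3 (TPM + 0.1) of the 9 members (red lines with names, at staggered heights for legibility) over the histogram of the 14985 genes with a mean of 1 TPM or more (grey, genes per bin of 0.1), as deposited (top) and after TMM scaling (bottom). The members sit with the bulk of genes in both panels, apart from Ppp1r1b on the left (ratio 0.789 and, after TMM, 0.636) and Six3 on the right (1.81 and 1.46).

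Marker lists of other forebrain regions differed between the same libraries. All 5 thalamic markers were higher in pup 1, beside 80.4% of all genes, with a summed 319 TPM in pup 1 and 124 TPM in pup 3. Tcf7l2, a thalamic transcription factor, had 243 TPM in pup 1 and 93.1 TPM in pup 3, and Lef1, the lowest of the list by mean TPM, 13.8 TPM in pup 1 and 8.06 TPM in pup 3. All 8 hypothalamic markers were higher in pup 1, beside the same 80.4% of all genes, with sums of 177 TPM in pup 1 and 78.1 TPM in pup 3. Only 4 of these 8 reach the mean of 1 TPM over which that share is taken. Avp, the vasopressin gene, led the 8 markers at 157 TPM in pup 1 and 69.0 TPM in pup 3. Rax was lowest at 0.05 TPM in pup 1 and 0 in pup 3, on 2 expected counts in pup 1 and 0 in pup 3. Of 6 cortical projection neuron markers, 5 were higher in pup 3, whereas 80.4% of all genes were higher in pup 1. Their sums were 379 TPM in pup 1 and 529 TPM in pup 3. They ran from Neurod6 at 206 TPM in pup 1 and 329 TPM in pup 3 to Tbr1 at 23.2 TPM in pup 1 and 23.97 TPM in pup 3. Of these 6, 0 met the 2-fold rule, beside 3.98% of all genes. It was met by 4 of the 5 thalamic markers and by 2 of the 4 hypothalamic markers that could be compared. The part of these regions in the pup ratios of Six3, which hypothalamus also expresses, and of Ppp1r1b, which deep cortical neurons also express, was not tested.

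Markers of other cells that can use a member were measured in the same libraries. The 7 mural cell markers, relevant because Ebf1 is also a gene of pericytes, summed to 40.7 TPM in pup 1 and 38.0 TPM in pup 3, from Rgs5 at 13.0 TPM in pup 1 and 12.3 TPM in pup 3 to Myh11 at 0.43 TPM in pup 1 and 0.42 TPM in pup 3. Of the B-cell markers, given because Ebf1 specifies that lineage, Pax5 was at 0 in both pups, and Cd79b had 0.62 TPM in pup 1 and 0.94 TPM in pup 3. The 5 cholinergic markers, given because of Isl1, summed to 25.5 TPM in pup 1 and 19.8 TPM in pup 3, most of it Lhx8, at 18.7 TPM in pup 1 and 15.6 TPM in pup 3. Chat was the lowest of them, at 0.24 TPM in pup 1 and 0.13 TPM in pup 3. Slc18a3 had 3.79 TPM in pup 1 and 2.52 TPM in pup 3. Slc5a7 had 1.66 TPM in pup 1 and 0.78 TPM in pup 3, and Gbx1 1.14 TPM in pup 1 and 0.76 TPM in pup 3.

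Of the 6 Cajal-Retzius markers, Reln led at 34.3 TPM in pup 1 and 29.7 TPM in pup 3, and Ebf3 was the lowest. Their sums were 47.6 TPM in pup 1 and 37.3 TPM in pup 3. All 6 were higher in pup 1, as were 80.4% of all genes. Of the 6, 5 reach the mean of 1 TPM over which that share is taken. The 8 midbrain and hindbrain markers summed to 3.87 TPM in pup 1 and 2.41 TPM in pup 3. Hoxa2 and Hoxb2, which Meis factors partner in the hindbrain, were at 0 in both pups, and En2 at 0 in pup 1. Gata3 was the highest of that list, at 1.59 TPM in pup 1 and 1.17 TPM in pup 3. The part of these cells in the levels of Isl1, Ebf1, Meis1 and Meis2 was not tested.

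Genes that work beside the members were present at very different levels. The 12 measured receptors and peptides of projection neurons had a median of 9.01 TPM, and 10 of them had 1 TPM or more in both pups. Peptide genes led: Tac1, the precursor of substance P, had 93.3 TPM in pup 1 and 90.1 TPM in pup 3, and Penk, the enkephalin precursor, 73.2 TPM in pup 1 and 59.6 TPM in pup 3. Cnr1, the cannabinoid receptor, followed at 41.6 TPM in pup 1 and 37.1 TPM in pup 3. The dopamine receptors were low, with Drd1 at 5.73 TPM in pup 1 and 4.86 TPM in pup 3 and Drd2 at 5.77 TPM in pup 1 and 3.92 TPM in pup 3. Chrm4, a muscarinic receptor, was the lowest by mean TPM at 0.96 TPM in pup 1 and 1.06 TPM in pup 3. Of these 12 genes, Oprk1, an opioid receptor gene named after its values were seen, met the 2-fold rule, beside 3.98% of all genes, at 3.42 TPM in pup 1 and 1.60 TPM in pup 3.

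The 22 measured genes of cAMP and G-protein signalling had a median of 82.5 TPM, and 21 of them had 1 TPM or more in both pups. The 3 named next had the highest mean TPM. Ppp1ca, a catalytic subunit of the phosphatase that DARPP-32 inhibits, had 467 TPM in pup 1 and 483 TPM in pup 3, and Ppp1cc, another, 169 TPM in pup 1 and 183 TPM in pup 3. Arpp19, a phosphatase 2A inhibitor, had 179 TPM in pup 1 and 188 TPM in pup 3. The lowest was Rgs9bp, given above. Of the 21 genes that could be compared, 2 (Rgs7bp, and Rasd2, named after its values were seen) met the 2-fold rule, both higher in pup 1, beside 3.98% of all genes. Rasd2, a small GTPase gene of striatum, had 4.05 TPM in pup 1 and 1.51 TPM in pup 3.

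The 20 further transcription factors of the striatal lineage had a median of 11.4 TPM and were all at 1 TPM or more in both pups. Foxp1, a forkhead factor of projection neurons, had 143 TPM in pup 1 and 113 TPM in pup 3. Dlx1, a homeobox gene of the ganglionic eminences, had 120 TPM in pup 1 and 87.0 TPM in pup 3, and Bcl11b, or Ctip2, 60.3 TPM in pup 1 and 37.4 TPM in pup 3. Gsx2, a factor of eminence progenitors, was lowest at 1.52 TPM in pup 1 and 1.23 TPM in pup 3. Of the 20, Foxp2 alone (chosen for naming after its values were seen) met the 2-fold rule, beside 3.98% of all genes, at 31.9 TPM in pup 1 and 15.2 TPM in pup 3.

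Transcripts of the members were compared by their deposited share of the gene's TPM in percent. The 9 members had 67 transcripts in the annotation, of which 22 held 10% or more in either pup, and Adora2a had 1. The same transcript led in both pups in 7 of the 8 members with several transcripts, beside 91.2% of 9516 detected protein-coding genes with several. Meis2 was the exception, though not by the deposited shares from posterior mean TPM.

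For Meis2, with 19 annotated transcripts, single shares differed between the pups by an amount that depended on the deposited estimate. Meis2-205 held 30.6% in pup 1 and 12.9% in pup 3, and Meis2-206 14.8% in pup 1 and 27.3% in pup 3. Meis2-203 held 18.9% in pup 1 and 8.04% in pup 3, Meis2-201 0.02% in pup 1 and 16.4% in pup 3, and Meis2-202 22.2% in pup 1 and 22.4% in pup 3. By the shares from posterior mean TPM the pups lay closer, with Meis2-205 at 21.4% in pup 1 and 15.8% in pup 3 and Meis2-206 at 22.6% in pup 1 and 22.5% in pup 3. Meis2-203 then held 10.7% in pup 1 and 11.8% in pup 3, and Meis2-201 7.2% in pup 1 and 11.6% in pup 3. Grouped by the coding segments they share, a grouping chosen after the values were seen, the plain TPM shares of the pups lay within 5.51 percentage points of each other. Transcripts with the 21-base extension shown above held 32.7% of Meis2 in pup 1 and 32.4% in pup 3, and those without it 56.0% in pup 1 and 57.7% in pup 3. The outer first coding exon was carried by 64.4% in pup 1 and 64.6% in pup 3, and the inner by 24.3% in pup 1 and 25.5% in pup 3. The proximal last coding exon was carried by 69.8% in pup 1 and 65.7% in pup 3, and the distal, which gives the longer proteins, by 18.9% in pup 1 and 24.5% in pup 3.

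**Figure D4:**
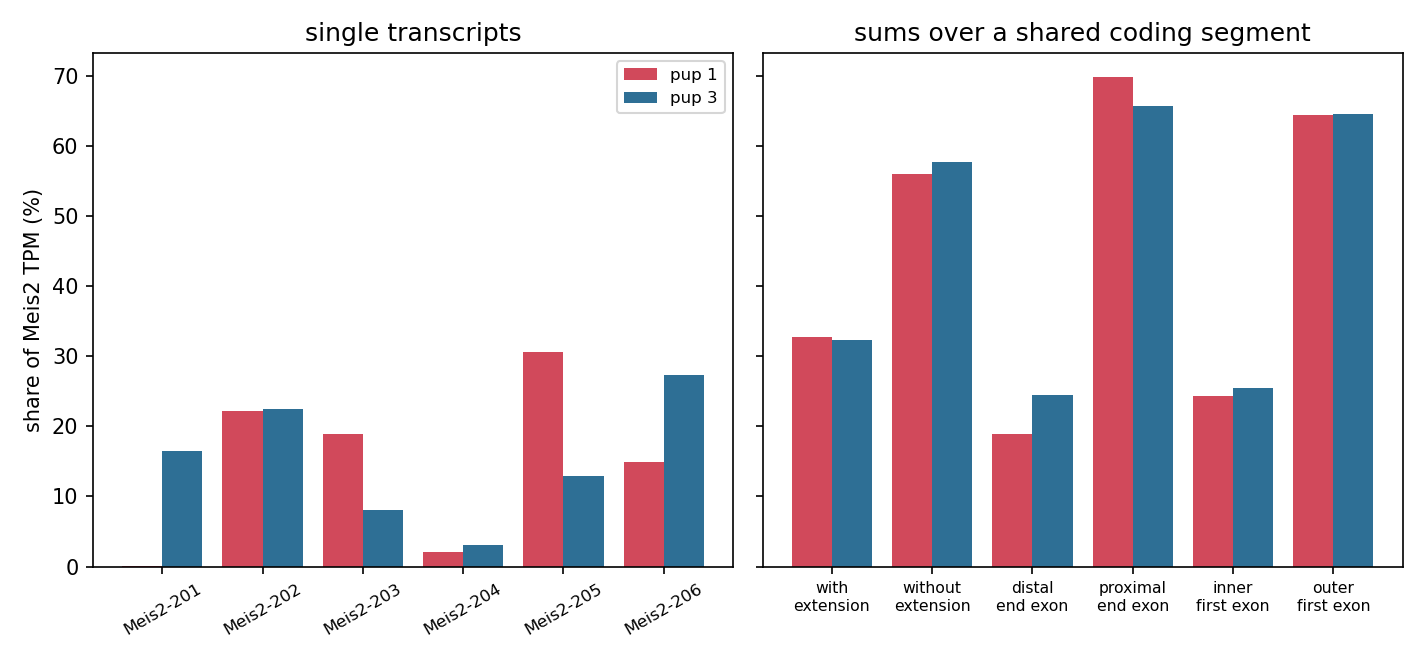
Share of Meis2 TPM in percent of the 6 protein-coding transcripts (left) and of their sums by the 21-base extension, the last coding exon and the first coding exon (right), in pup 1 (red, left bar) and pup 3 (blue, right bar). Meis2-205 has 30.6% in pup 1 and 12.9% in pup 3 (21.4% in pup 1 and 15.8% in pup 3 by posterior mean TPM, not plotted), while transcripts with the extension sum to 32.7% in pup 1 and 32.4% in pup 3.

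By the deposited shares, Isl1 was mostly the longer coding form. Isl1-201, which encodes 349 codons, held 59.1% in pup 1 and 51.7% in pup 3, and Isl1-202, which lacks the 69 bases shown above and encodes 326 codons, 21.8% in pup 1 and 16.7% in pup 3. The TPM of Isl1-201 was 2.69-fold that of Isl1-202 in pup 1 and 3.06-fold in pup 3. Of the 1198 bases of Isl1-202, 0 lie outside the exons of Isl1-201. The division between them thus rests on the junction without the 69 bases and on their annotated ends. Isl1-203, annotated as a retained intron, held 18.1% in pup 1 and 31.5% in pup 3, but only 19 of its 676 bases lie outside the exons of Isl1-201.

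For Ebf1, Ebf1-202 held 70.5% in pup 1 and 77.4% in pup 3, and Ebf1-201 20.9% in pup 1 and 19.5% in pup 3. They encode 592 and 591 codons, differ in the 3-base stretch shown above, and Ebf1-201 reaches 2562 bases further downstream. Six3-202 held 86.1% in pup 1 and 87.9% in pup 3 and Six3-203 12.7% in pup 1 and 10.1% in pup 3. Both encode 333 codons, and Six3-202 starts 7226 bases upstream of Six3-203, inside the stretch shared with Six3os1.

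Meis1-201, the main coding form, held 48.6% in pup 1 and 39.8% in pup 3. Meis1-203, annotated as a processed transcript, held 35.5% in pup 1 and 38.8% in pup 3, and its lead over or behind Meis1-201 did not exceed the pup spread. Only 27 of the 2008 bases of Meis1-203 lie outside the exons of Meis1-201. Meis1-202, annotated as a target of nonsense-mediated decay, held 8.15% in pup 1 and 11.6% in pup 3.

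Ppp1r1b-201, which encodes the 194 codons of DARPP-32, held 54.0% in pup 1 and 53.2% in pup 3. Nearly all of the rest was Ppp1r1b-202, with 44.8% in pup 1 and 45.2% in pup 3. This transcript is annotated as a retained intron and starts inside the gene. Only its first 30 bases (chr11:98350855-98350884, plus strand), in capitals here before the bases it shares with Ppp1r1b-201, lie outside the exons of Ppp1r1b-201, so the division between them rests on few distinguishing bases.
Ppp1r1b-202: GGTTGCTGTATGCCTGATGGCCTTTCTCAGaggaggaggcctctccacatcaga

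Pde10a-202 held 68.6% in pup 1 and 78.4% in pup 3 and encodes 796 codons. By posterior mean TPM it held 61.75% in pup 1 and 65.43% in pup 3. Its first coding exon (chr17:8802079-8802145, plus strand), in capitals here, opens the protein. Transcripts from the same main start held 88.3% of Pde10a TPM in pup 1 and 93.3% in pup 3. By posterior mean TPM they held 83.1% in pup 1 and 85.2% in pup 3. Of these transcripts only Pde10a-202 is annotated as protein-coding. Transcripts from the most distal start held 7.87% in pup 1 and 2.93% in pup 3. Pde10a-210, a retained-intron transcript from the main start with 200 of 782 bases outside the exons of Pde10a-202, held 11.4% in pup 1 and 9.25% in pup 3.
Pde10a-202: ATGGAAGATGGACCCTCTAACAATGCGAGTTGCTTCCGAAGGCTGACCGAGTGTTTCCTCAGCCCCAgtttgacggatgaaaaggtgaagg

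For Rgs9, the long coding end, which is known from striatum as RGS9-2, prevailed over the short end known from retina as RGS9-1. Rgs9-201 with the long end (675 codons) held 77.8% in pup 1 and 86.7% in pup 3, and Rgs9-204 with the short end (484 codons) 9.91% in pup 1 and 8.52% in pup 3. The TPM of Rgs9-201 was 7.38-fold that of Rgs9-204 in pup 1 and 9.19-fold in pup 3, a ratio larger than the pup spread. Rgs9-203, which ends before both, held 10.4% in pup 1 and 4.82% in pup 3.

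**Figure D5:**
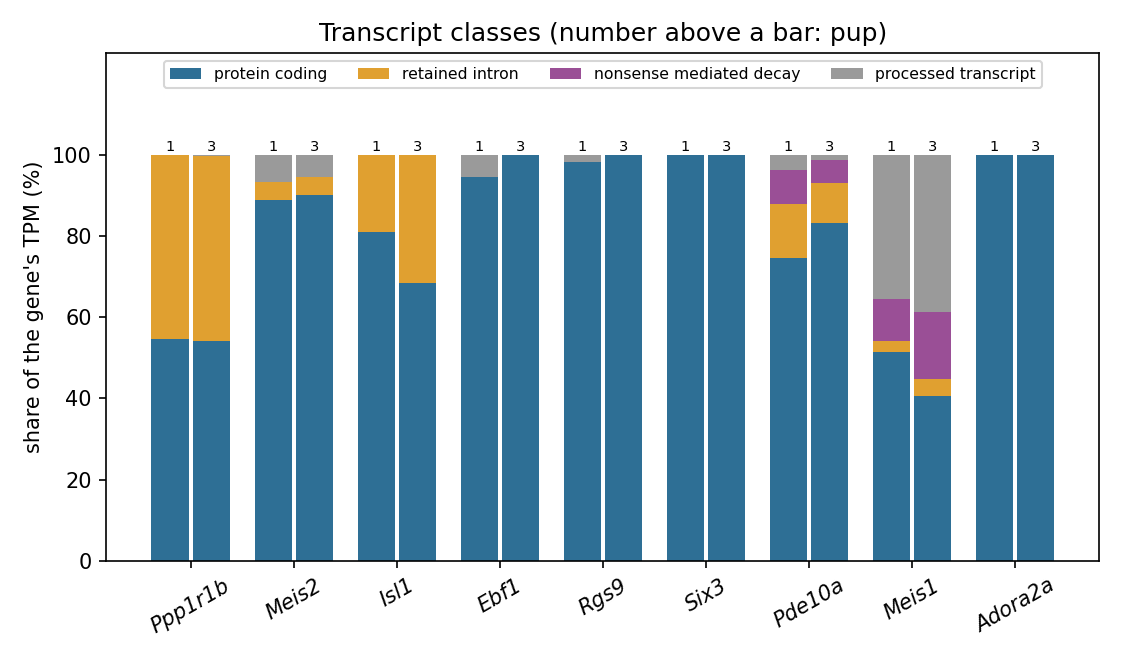
Share of each member's TPM in percent by the annotated class of its transcripts, with pup 1 as the left bar and pup 3 as the right bar of each gene (numbers above the bars). Six3 and Adora2a are all protein-coding, while Ppp1r1b (45.5% in pup 1 and 45.6% in pup 3) and Isl1 (19.0% in pup 1 and 31.6% in pup 3) have large retained-intron shares and Meis1 a large processed-transcript share (35.5% in pup 1 and 38.8% in pup 3).

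Retained-intron transcripts made up 10% or more of TPM, as a mean of both pups, in 3 of the 8 members with several transcripts (Ppp1r1b, Isl1 and Pde10a), beside 18.0% of detected protein-coding genes with several. The share of Ppp1r1b was larger than in 96.6% of those genes and that of Isl1 larger than in 92.0%. The small number of bases outside coding transcripts, given above for Ppp1r1b-202 and Isl1-203, limits what these shares measure. Those bases lie at the 5′ end of each transcript, and in Ppp1r1b-202 they span no whole intron of Ppp1r1b-201. The class is thus that of the annotation.

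Promoter windows from RefSeq (GRCm38.p6), 250 bases before to 50 after a start, were at hand for 7 members in 9 windows, and Adora2a and Ppp1r1b had none. Searched on both strands, the MEIS core TGACAG occurred in the window of Six3 alone, and 19.2% of 32851 windows of all genes hold it. TATAAA occurred in the windows of Meis2 and Rgs9 and in 13.6% of all windows. No member window held CCCNNGGG (13.7% of all), TAATTA (5.29%), TGACGTCA (1.79%) or AGGTCA (16.3%). The Six3 window (chr17:85620584-85620883, plus strand) lies at the start of Six3-203, the transcript with the smaller share, and is shown with the MEIS core in capitals.
Six3 promoter: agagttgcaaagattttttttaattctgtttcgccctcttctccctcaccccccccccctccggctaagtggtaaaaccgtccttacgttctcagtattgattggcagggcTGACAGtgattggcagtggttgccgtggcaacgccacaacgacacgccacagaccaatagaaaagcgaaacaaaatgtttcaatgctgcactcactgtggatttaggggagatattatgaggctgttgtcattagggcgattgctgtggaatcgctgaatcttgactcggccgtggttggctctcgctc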

How the data were processed

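The labels give mirVana extraction, and 10 ng of RNA longer than 200 nt went into each library and spike-in RNAs were added. The authors deposited gene and transcript tables of expected counts and TPM on mm10 with GENCODE M4, per the deposited notes, with TPM intervals. The aligner, quantifier, strandedness and interval level, not given in the sources used here, bear on these values. Deposited transcript tables give each transcript's percent of its gene's TPM. Expected counts divide reads shared by several features, so transcripts that share most bases are uncertain.

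Here, symbols, transcripts and positions came from GENCODE M21 by identifier without version, and 64 of 67 member transcripts had equal lengths in both releases. Genes were detected at 1 TPM in both pups. Ratios used TPM + 0.1 and understate the change of low genes. A difference between pups needed a mean of 1 TPM, 2-fold and deposited intervals apart. A pair ratio was called larger than the spread where its mean log2 exceeded 3 SD with 1 sign. Scaling factors came from TMM (edgeR 4.0.16) and DESeq2 1.42.0 size factors on rounded counts (R 4.3.3). Each was turned into 1 constant by which the TPM of pup 1 was divided. That constant was the median, over genes with a mean of 1 TPM or more, of the TPM ratio over the scaled count ratio. The rest used Python 3.11.15, numpy 2.4.6, pandas 2.3.3 and matplotlib 3.10.9. The difference rule was tried on simulated counts that held counting noise but no variation between animals. That trial does not show how the rule behaves on 2 pups.

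Members and lists were chosen with earlier results of these data known. Named genes were the members, the 3 highest and the lowest of each partner list with Drd1 and Drd2, the genes of pairs, the highest, lowest and zero markers of each other list, and member transcripts at 10% or more. The 5 cholinergic markers were all named, a choice made after the values were seen. Gpr52 and Pde2a were not analysed here. A listed marker that the naming rule covers is not reported here.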

Additional observations from a re-analysis of the deposited data

How the results depend on the processing

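Of 178 recomputed values, 142 kept their direction and stayed within 1.5 times or within the spread. The count of members at or above the detection level was 9 at 0.5, 2 and 5 TPM and 5 at 10 TPM. The count of members differing between the pups was 1 at 1.5-fold and 0 under the other settings. The count of members higher in pup 1 was 5 after TMM and 5 with DESeq2 size factors. Both scalings divide the TPM of pup 1 by a constant. They reversed the log2 ratio of pup 1 over pup 3 of Isl1 (-0.017 with TMM and -0.0091 with DESeq2 size factors). The same held for Meis1 (-0.11 and -0.11) and Adora2a (-0.084 and -0.076). On its own expected counts with the TMM libraries, Isl1 stayed higher in pup 1. The count of pairs larger than the spread was 12 at a pseudocount of 0.01, 13 at a pseudocount of 1 and 13 with posterior mean TPM. Pairs with a gene near 0 moved with the pseudocount: the mean log2 ratio of Isl1 over Isl2 was 10.8 at 0.01 and 5.21 at 1. Under posterior mean TPM, Meis1-203 led in pup 3, and Meis2-206 led Meis2 in both pups. No paired analysis was possible because both samples form 1 group. Depth limits Isl2, Six6, Ebf3, Rgs9bp and the transcripts that differ by few bases.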

Other observations

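Genes within 1000 bases of a member were listed after the data were seen. The noncoding gene 2700033N17Rik, upstream of Meis2 on the same strand (chr2:116066218-116067444), had 10.4 TPM in pup 1 and 10.9 TPM in pup 3, so its pup ratio of 0.953 differed from the 1.30 of Meis2. Stard3, a cholesterol-binding protein gene directly downstream of Ppp1r1b (chr11:98358368-98381112, plus strand), had 27.4 TPM in pup 1 and 26.6 TPM in pup 3, beside a ratio of 0.789 for Ppp1r1b. Gm16141, antisense within Meis1 (chr11:19013817-19015154, plus strand), had 19 expected counts in pup 1 and 2 in pup 3. Apart from Six3os1, the other annotated genes in these windows had at most 0.16 TPM in either pup.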
